A study of Mus musculus with 8 samples.

Results

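The collagen gene family was followed across fetal and adult mouse livers with and without the gene Btg2 (also called TIS21 or PC3), which encodes an antiproliferative transcriptional co-regulator. The members were all genes with a named probe on the array whose mouse symbol has the form Col, a type number, a, and a chain number. They were 42 of the 20284 genes named on the array, measured by 61 probes, and each gene was represented by its probe of highest mean signal, to which detection and values refer unless another probe is named. Of the 44 collagen genes in the class lists, Col6a3 and Col12a1 were not analysed here.

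Collagens are secreted proteins built from triple helices of alpha chains, each chain encoded by its own gene. Fibrillar collagens such as types I, III and V form the tensile fibres of the matrix, type IV forms the sheet of basement membranes, and the remaining types decorate fibrils, form beaded filaments, or sit in cell membranes. In the liver, the fibrillar chains are known mainly as products of hepatic stellate cells and portal fibroblasts, and their accumulation is what is called fibrosis.

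RNA came from C57BL/6J livers and was hybridised, 200 ng per array with Cy3 dye, to 1-colour Agilent mouse arrays. There were 4 groups. The adult groups were livers of male mice aged 10 weeks, fasted for 20 h, either wild type (WT-Ad) or lacking Btg2 (KO-Ad). The fetal groups were RNA pools of more than 3 fetal livers from day 13.5 embryos, either wild type (WT-Fetal) or lacking Btg2 (KO-Fetal). The adults of both genotypes were fasted and the fetuses were not described as such, so age, fasting and sex composition cannot be told apart in any adult and fetal comparison. The sources used here do not state how many adult mice contributed to an adult sample. Each group was 1 RNA sample measured on 2 arrays as technical duplicates, so every SE and adjusted p below describes the error between arrays and not the spread between animals.

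All 8 arrays lay on 1 slide read in 1 scan. Each group filled its own column of the slide, so column and group cannot be told apart in any comparison. Signals are given as the processed signal divided by that array's 75th percentile, called the scaled signal here. Adult arrays had a percentile of 132 to 171 units and fetal arrays one of 277 to 333, so a spot of equal brightness has a higher scaled value on an adult array. The dimmest probe flagged well above background had a scaled signal of 0.133 to 0.185 in adults and of 0.0416 to 0.0640 in fetal pools. A probe not flagged so on either array of a group has no measured level there. A fold against it is written as "at least" and called a bound. It uses the higher of the probe's own signal and that dimmest flagged signal. This is a working limit and not a guaranteed one, because some unflagged probes read above the dimmest flagged one. Col20a1, for example, read 0.198 and 0.220 on the WT-Ad arrays without the flag. The Btg2 probe read 1.12 and 1.20 in the wild-type adult and 6.22 and 6.42 in the wild-type fetal pool, and it was not well above background on any of the 4 knockout arrays. All 12 hepatocyte marker genes were well above background on both arrays of both adult groups, 11 of 12 in WT-Fetal and 10 of 12 in KO-Fetal. The fetal pools also held heart muscle markers, all 12 of them well above background in both pools.

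Collagen probes were detected more widely in the fetal pools than in the adult livers. In WT-Fetal 28 of the 42 genes were well above background on both arrays, in KO-Fetal 26, in KO-Ad 15 and in WT-Ad 12. Over all named genes the corresponding shares were 69.3%, 67.2%, 57.1% and 55.0%. The 11 genes above background on all 8 arrays were Col1a1, Col1a2, Col3a1, Col5a1, Col27a1, Col4a1, Col4a2, Col6a1, Col14a1, Col16a1 and Col18a1. The 6 genes above background on none were Col4a3 of type IV, Col6a4 and Col6a5 of the beaded filaments, Col10a1 of hypertrophic cartilage, Col19a1 and Col28a1. Another 7 genes (Col6a6, Col8a1, Col9a3, Col11a2, Col13a1, Col15a1 and Col22a1) exceeded background on at most 1 array of any group and were not tested. The remaining 29 were tested among 14564 genes with limma: 10 fibrillar, 5 of type IV and 14 others. A gene was called where its Benjamini-Hochberg adjusted p over all 14564 genes was under 0.05 and it differed at least 2-fold.

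**Figure D1:**
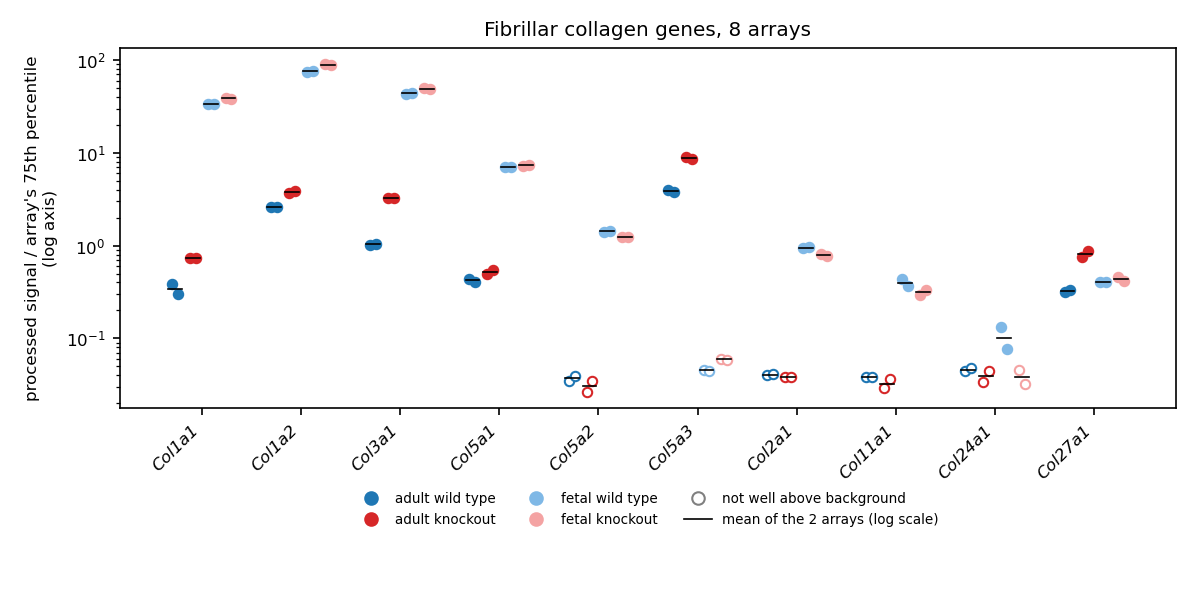
Scaled signal (processed signal over the array's 75th percentile, log axis) of the 10 tested fibrillar collagen genes on the 8 arrays. Points are arrays, open where not well above background, and lines are the mean of the 2 arrays of a group. Col3a1 sits at 1.02 and 1.04 in the wild-type adult, at 3.25 and 3.27 in the knockout adult and above 43 in both fetal pools, and Col5a3 is the only one of the 10 that is above background in adults and below it in fetal pools.

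In the adult livers, 4 of the 29 tested collagen genes were higher in the Btg2 knockout than in the wild type and 0 were lower; 4.96% of all genes tested were called higher and 2.53% lower. Those 4 all belonged to the 10 fibrillar genes: Col3a1, Col27a1, Col5a3 and Col1a1. None of the 5 type IV genes and none of the 14 others was called in limma, where 3 and 4 of them had an unadjusted p under 0.05 in the higher direction and 1 and 1 in the lower. The median log2 difference was 0.42 over the fibrillar genes, 0.28 over type IV, -0.09 over the others and 0.18 over all 29, beside -0.10 over all genes tested. These medians mix measured and unmeasured genes. Over the 14 of the 29 above background on at least 1 array of both groups it was 0.50. Over the 11 below background in both it was -0.26. Of the collagens neither fibrillar nor type IV, only Col6a1, Col6a2, Col14a1, Col16a1 and Col18a1 were measured in both groups, so most could not be compared. With normexp background correction in place of Agilent's processed signal, the median over the 29 was -0.05 beside -0.09 over all genes. With the probe of highest scaled log2 signal the 2 medians were -0.05 and -0.10. Over all 42 collagen genes without the filter on dim probes they were -0.11 and -0.18. Without the second KO-Ad array they were -0.02 and -0.10, and without the first WT-Ad array 0.10 and -0.10. Median scaling gave 0.37 and 0.09, and quantile normalization 0.25 and 0.01. Over the 11 collagen genes above background on all arrays the median was 0.49, beside -0.10 over all such genes.

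Col3a1, the chain of type III collagen that is laid down with type I in soft tissues, had the largest difference among those called. Its scaled signal was 1.02 and 1.04 on the wild-type arrays and 3.25 and 3.27 on the knockout arrays. The groups did not overlap, and the difference was 3.17-fold, or 1.66 ± 0.02 on the log2 scale (SE, 2 arrays against 2; adjusted p = 3.4e-08). It stayed between 1.29 and 1.85 under every scaling and background setting tried. Col5a3, a minor chain of type V collagen that helps set fibril diameter, read 3.93 and 3.80 in the wild type and 9.04 and 8.61 in the knockout. Its difference was 2.28-fold (log2 1.19 ± 0.08, adjusted p = 2.0e-05).

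Col27a1, a fibrillar chain known from cartilage, read 0.315 and 0.330 in the wild type and 0.744 and 0.882 in the knockout. That was 2.51-fold (log2 1.33 ± 0.12, adjusted p = 6.3e-05), but with normexp it was 0.56 on the log2 scale and under the fold minimum. Col1a1, the major chain of type I collagen, was dim in adult liver at 0.388 and 0.298 in the wild type and 0.743 and 0.732 in the knockout. It rose 2.17-fold (log2 1.12 ± 0.11, adjusted p = 9.2e-05), which dropped under the fold minimum with normexp (0.56) and without the second wild-type array (0.92). Within the slide rows, each of which held 1 array per group, its difference was 0.94 and 1.30, whereas that of Col3a1 was 1.67 and 1.66.

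Col1a2 encodes the partner chain of Col1a1 in type I collagen and was not called. It read 2.63 and 2.60 in the wild type and 3.69 and 3.83 in the knockout, 1.44-fold apart (log2 0.52 ± 0.03, adjusted p = 6.3e-06), so the arrays did not overlap but the size was under 2-fold. Col5a1, the main type V chain, differed by 0.31 ± 0.07 (adjusted p = 0.0065). Col2a1 of cartilage, Col5a2, Col11a1 and Col24a1 were below background in both adult groups, and their levels could not be compared. Col5a2 is the neighbour of Col3a1 on chromosome 1 among protein-coding genes: its scaled signals of 0.0267 to 0.0394 in the adults were all below background while Col3a1 was clearly detected.

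The main basement membrane chains had small differences in the adults, under the fold minimum but with adjusted p under 0.05. Col4a1 read 1.35 and 1.30 against 1.84 and 1.89 (log2 0.49 ± 0.04, adjusted p = 4.3e-05). Col4a2, which shares the trimer and lies next to it on chromosome 8, read 1.66 and 1.77 against 2.11 and 2.05 (log2 0.28 ± 0.05, adjusted p = 0.0021). Col6a1 and Col6a2, neighbours on chromosome 10 whose products form the pericellular beaded filaments, differed by 0.28 ± 0.08 and 0.51 ± 0.10. In WT-Ad, Col6a2 passed the background flag on 1 array of 2.

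Of the fibril-associated collagens, Col14a1 came closest to a call. It read 2.88 and 2.72 in the wild type and 5.40 and 4.97 in the knockout, 1.85-fold apart (log2 0.89 ± 0.05, adjusted p = 6.6e-06). A second Col14a1 probe gave 0.96, and the gene passed the fold minimum with median scaling (1.08). Col18a1, whose C-terminal fragment is endostatin, had scaled signals of 123 and 117 in the wild type and 115 and 115 in the knockout (log2 -0.06 ± 0.04, adjusted p = 0.20). Col9a1 gave 0.830 and 0.0502 on the wild-type arrays, the largest gap between duplicate arrays among the tested collagens, and its difference of -1.92 ± 1.11 had an adjusted p of 0.18.

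Counting by adjusted p alone, without a fold minimum, 13 of the 29 collagen genes were higher in the knockout adult and 2 lower, where the shares over all genes were 22.8% and 32.8%. The 2 lower ones, Col4a5 and Col8a2, were below background in both adult groups by these probes; a second Col8a2 probe was above it on 1 WT-Ad array. Median scaling gave 5 called higher and 1 called lower in place of 4 and 0, with all 4 among the 5; over all genes the split moved from 722 higher and 368 lower to 1048 and 306.

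**Figure D2:**
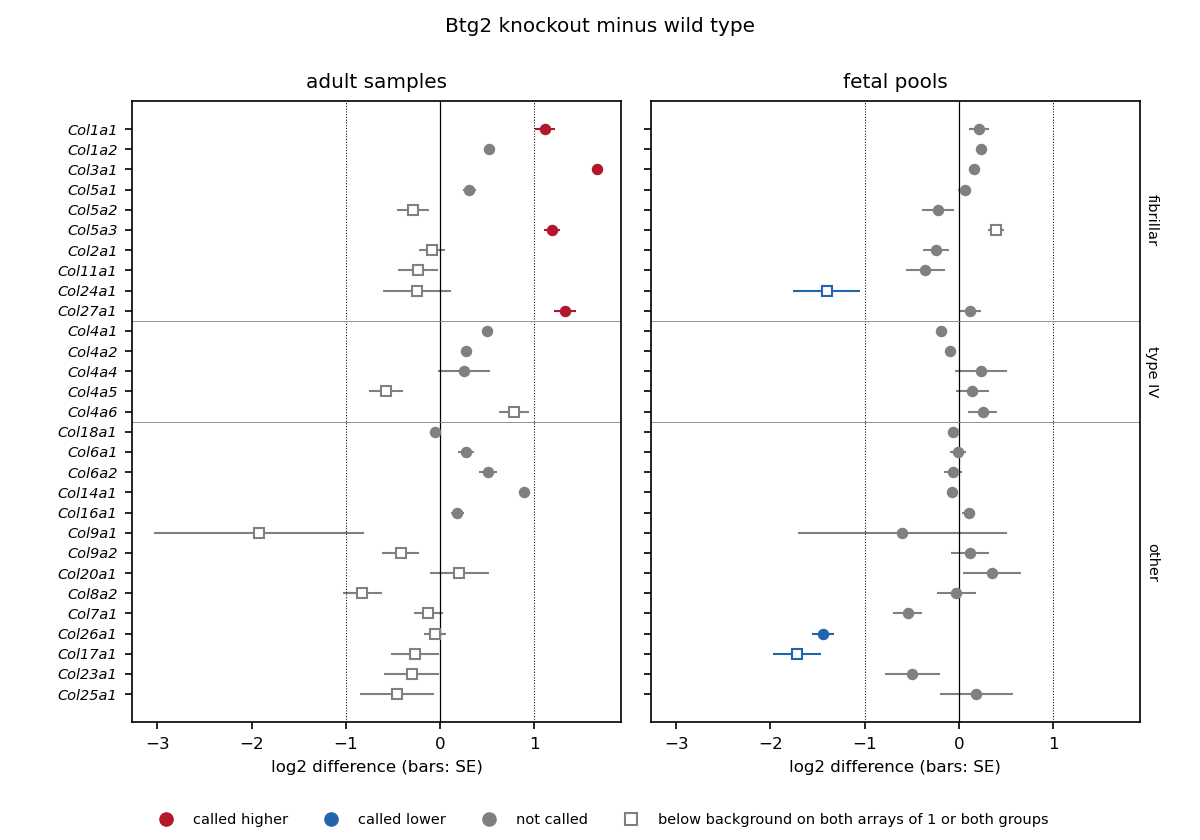
Log2 difference between Btg2 knockout and wild type for the 29 tested collagen genes in the adult samples (left) and fetal pools (right), with SE over arrays; dotted lines mark a 2-fold difference and open squares mark genes below background in 1 or both groups. The 4 called higher in adults are all fibrillar and lie between 1.12 and 1.66, while in the fetal pools the 3 called lower are Col17a1, Col26a1 and Col24a1.

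Promoter windows are shown for Col3a1 and Col5a3, which were called higher in the knockout adult under every setting tried that could test them, for Col1a2, which was not called, and for Col18a1, which was higher in adult than in fetal liver, unlike most fibrillar genes. They are the bases before the annotated start from RefSeq on GRCm38.p6, 5′ to 3′ on the gene's strand, with matches in capitals to the TATA box TATAAA, the CCAAT box CCAAT and the GC box GGGCGG on either strand. The windows are chr1:45311288-45311537 (plus strand) for Col3a1, chr6:4505368-4505617 (plus) for Col1a2, chr9:20815118-20815317 (minus) for Col5a3, cut to the 200 bases outside the annotated gene, and chr10:77166531-77166780 (minus) for the outer Col18a1 start.
Col3a1: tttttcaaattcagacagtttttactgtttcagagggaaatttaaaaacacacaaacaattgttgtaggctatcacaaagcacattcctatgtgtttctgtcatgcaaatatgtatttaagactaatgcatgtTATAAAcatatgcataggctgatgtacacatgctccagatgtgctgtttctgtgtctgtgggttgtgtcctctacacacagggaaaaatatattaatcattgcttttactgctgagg
Col1a2: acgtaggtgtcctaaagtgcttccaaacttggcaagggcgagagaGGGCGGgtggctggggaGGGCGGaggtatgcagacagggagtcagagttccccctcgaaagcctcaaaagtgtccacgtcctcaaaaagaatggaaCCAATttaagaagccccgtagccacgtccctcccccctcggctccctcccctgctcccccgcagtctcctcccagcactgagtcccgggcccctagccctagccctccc
Col5a3: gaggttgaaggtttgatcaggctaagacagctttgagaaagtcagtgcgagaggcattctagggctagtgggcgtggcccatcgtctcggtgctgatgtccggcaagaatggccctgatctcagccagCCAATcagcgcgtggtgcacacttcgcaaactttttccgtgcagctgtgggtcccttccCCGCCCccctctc
Col18a1: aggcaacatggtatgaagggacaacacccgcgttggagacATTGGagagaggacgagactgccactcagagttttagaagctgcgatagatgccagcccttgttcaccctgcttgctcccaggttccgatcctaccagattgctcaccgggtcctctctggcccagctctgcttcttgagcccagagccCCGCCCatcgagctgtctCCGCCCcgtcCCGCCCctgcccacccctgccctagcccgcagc

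The Col3a1 window holds 1 TATA box and neither of the other motifs. The Col1a2 window holds 1 CCAAT box and 2 GC boxes and that of Col18a1 1 and 3. The full 250-base window of Col5a3 holds 1 CCAAT box and 2 GC boxes, 1 of the GC boxes within the printed bases. Over the 37 windows of the 34 collagen genes found in the table, 13.5% held a TATA box, 35.1% a CCAAT box and 59.5% a GC box. Over all 32851 windows of that length the shares were 12.4%, 33.8% and 32.7%. A match describes letters only.

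Of 30 tested genes that hydroxylate, fold, cleave or cross-link collagen, 1 was called higher and 1 lower in the knockout adult, where the all-gene shares were 4.96% and 2.53%. Pcolce2, an enhancer of procollagen C-proteinase, was below background in WT-Ad and at 0.704 and 0.661 in KO-Ad, at least 3.83-fold higher. P3h2 was the lower one, below background in both groups. Serpinh1, the collagen chaperone HSP47, read 1.88 and 1.60 against 2.28 and 2.23.

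Among 17 fibril-associated proteoglycans and matrix genes only Fbn1 was called, higher, and it was below background in both adult groups. Of 17 laminins, nidogens and basement membrane proteoglycans 1 was lower: Lamb3, a laminin-332 chain, read 1.98 and 2.15 in the wild type and 0.228 and 0.236 in the knockout (log2 -3.15 ± 0.18). Of 8 collagen receptors, Lair1, an inhibitory receptor of leukocytes, was higher at 0.978 and 0.974 against 0.324 and 0.323 (log2 1.59 ± 0.14). Gp6, the platelet collagen receptor, was at least 2.32-fold lower. Of 9 genes for collagen breakdown and its inhibitors Timp1 was called higher, below background in both groups. Of 22 TGF-beta pathway genes limma called 0 higher, though 7 were higher at an unadjusted p under 0.05, and their median log2 difference was 0.01. Those members outside both-group detection were named because the counts were small, after their values were seen.

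Markers of other cell types moved in the same adult pair, where 4.96% of all genes tested were called higher and 2.53% lower. Of 16 stellate cell and fibroblast genes, 3 were higher in the knockout: Acta2 (log2 1.71 ± 0.03), Vim (1.21 ± 0.03) and Dpt, at least 1.52-fold. Hhip was lower at -1.06 ± 0.12, and Gli1 was below background in both groups. Their summed scaled signal was 19.6 on both wild-type arrays and 25.1 and 25.3 on the knockout arrays. All 13 macrophage and Kupffer cell genes were higher, with sums of 62.8 to 66.0 against 364 to 372. Of 14 endothelial genes 1 was higher (Tek, log2 1.23 ± 0.13), with sums of 129 to 131 against 149 to 156. Of 7 mesothelial genes 3 were called higher, none of them above background in both groups, with sums of 1.70 to 1.90 against 2.25 to 2.44. Among 12 hepatocyte genes limma called 0, with 1 higher and 9 lower at an unadjusted p under 0.05. Their sums were 9468 to 9563 against 7942 to 8009. Of 4 tested intestinal epithelium genes Fabp2 and Lgals4 were lower and Reg3b and Vil1, both below background in WT-Ad, higher, and the sums were 248 to 250 against 96.0 to 96.6, with Cdx1, Cdx2, Cdh17 and Muc2 below background in both. The part of any of these cell types in the collagen differences was not tested. In bulk liver RNA, more cells of a type and more RNA per cell cannot be told apart.

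In the fetal pools, 0 collagen genes were called higher in the knockout and 3 lower, and the shares over all genes tested were 0.522% and 1.44%. The count of 0 is from limma, in which 3 collagen genes had an unadjusted p under 0.05 in the higher direction. The median log2 difference was -0.02 over the 29, beside 0.02 over all genes. The 3 lower genes came from different classes: Col26a1, an extracellular collagen described in developing gonads, Col17a1, the transmembrane collagen of epidermal hemidesmosomes, and Col24a1, a minor fibrillar chain.

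Col26a1 read 5.76 and 5.68 in the wild-type pool and 2.28 and 1.95 in the knockout pool. The arrays did not overlap, and the difference was 2.72-fold (log2 -1.44 ± 0.12, adjusted p = 5.8e-04), with values of -1.34 and -1.54 within the slide rows. Col17a1 was dim in the wild-type pool at 0.161 and 0.143 and below background in the knockout pool, at least 2.39-fold lower (adjusted p = 0.0045). Col24a1 read 0.132 and 0.0761 in the wild type and was below background in the knockout, at least 1.58-fold lower (adjusted p = 0.032). With normexp, Col17a1 and Col24a1 differed by -0.31 and -0.09 and were not called. Col24a1 also lost its call without the first wild-type array, without either knockout array and with median scaling.

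The abundant fetal fibrillar chains differed little between the pools. Col1a1 read 33.2 and 33.5 in the wild type and 39.4 and 38.2 in the knockout (log2 0.22 ± 0.11, adjusted p = 0.19). Col1a2 read 74.6 and 76.8 against 89.7 and 88.2 (0.23 ± 0.03, adjusted p = 0.0023). Col3a1 read 43.5 and 44.1 against 49.5 and 48.4 (0.16 ± 0.02, adjusted p = 0.0052). In all 3 the knockout arrays lay above the wild-type arrays, and the group means differed by at most 1.17-fold.

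Col4a1 read 3.67 and 3.68 in the wild-type pool and 3.23 and 3.24 in the knockout pool (log2 -0.18 ± 0.04, adjusted p = 0.019). Col7a1, the anchoring fibril collagen beneath epithelia, read 0.832 and 0.765 in the wild type and 0.564 and 0.532 in the knockout (log2 -0.54 ± 0.15, adjusted p = 0.044). By adjusted p alone, 3 collagen genes were higher and 5 lower, where all genes gave 13.9% and 8.60%.

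Markers of tissues other than liver differed between the same pools, where 0.522% of all genes tested were called higher and 1.44% lower. Of 9 epidermal genes 6 were lower in the knockout pool, among them Krtdap (log2 -2.74 ± 0.22), Krt15 (-2.34 ± 0.20), Krt14 (-2.30 ± 0.23) and Krt5 (-2.28 ± 0.32). Their summed scaled signal was 31.5 and 31.6 in WT-Fetal and 12.9 and 13.2 in KO-Fetal, and Dsg3 was below background in both. Of 14 body wall and limb mesenchyme genes 6 were lower and 2 higher, with sums of 5.72 to 5.84 against 3.14 to 3.17. Of 12 heart muscle genes 8 were higher, with sums of 140 to 142 against 343 to 346. Of 8 skeletal muscle and tendon genes 2 were lower, although the sums, 66.2 to 66.4 against 122 to 125, were higher. Of the 10 listed, 8 were above background on both WT-Fetal arrays and 6 on both KO-Fetal arrays. Myf5 was below background in both pools, and Myod1, Tnmd and Mkx in the knockout pool only. Of 8 cartilage genes Ibsp was lower, with sums of 2.03 to 2.29 against 2.08 to 2.11 and Matn1, Matn3, Sox5 and Ucma below background in both pools. The part of these tissues in the values of Col17a1, Col26a1, Col24a1 and Col7a1 was not tested.

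None of 30 genes that process collagen was called between the fetal pools in limma, with 7 higher and 2 lower at an unadjusted p under 0.05, and none of 17 laminin and basement membrane genes, with 1 and 4. Among 17 proteoglycan and matrix genes 2 were lower, where the all-gene share was 1.44%. They were Aspn, by at least 2.22-fold, and Omd, below background in both. None of the 8 receptors, 9 breakdown genes or 22 TGF-beta pathway genes was called, with 2, 3 and 10 at an unadjusted p under 0.05.

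The adult knockout effect was set against the fetal one in the same fit. In 4 of the 29 collagen genes the adult effect was higher than the fetal effect and in 0 it was lower, where 6.05% and 3.69% of all genes were called; limma gave 2 collagen genes in the lower direction at an unadjusted p under 0.05. For Col3a1 the effects were 1.66 in adults and 0.16 in fetal pools, a difference of 1.50 ± 0.03 (adjusted p = 5.5e-07). For Col27a1 they were 1.33 and 0.12, a difference of 1.21 ± 0.17 (adjusted p = 7.4e-04). Col17a1 and Col26a1 were the other 2, with differences of 1.45 ± 0.36 and 1.39 ± 0.17. Both were below background in the 2 adult groups, so Col26a1 was measured in the fetal pools alone. Col17a1 was below background in KO-Fetal too, so only WT-Fetal (0.161 and 0.143) held a measured level of it. Col1a1 (0.90 ± 0.15) and Col5a3 (0.80 ± 0.12) were under the fold minimum, and Col5a3 was below background in both fetal pools.

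Between wild-type stages, 22 of the 29 tested collagen genes were lower in adult than in fetal liver and 3 were higher, against 27.9% and 27.3% of all genes tested. In the knockout, 18 were lower and 3 higher, against 27.8% and 25.8%. The median log2 difference was -2.39 in the wild type and -2.63 in the knockout, beside -0.01 and -0.04 over all genes. With normexp the collagen medians were -1.0 and -0.77, beside 0.18 and 0.09 over all genes. Without the filter on dim probes, over all 42 collagen genes, they were -1.17 and -0.42, beside 0.62 and 0.53 over all genes. Other scalings moved the all-gene median of the wild-type comparison to between -0.64 and -0.29, with 2641 genes higher and 6090 lower under median scaling in place of 3975 and 4068. The collagen counts under median scaling were 23 lower and 2 higher in the wild type. Of the 22 lower genes 10 were above background on at least 1 array of both groups, and 12 were below background in adults.

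**Figure D3:**
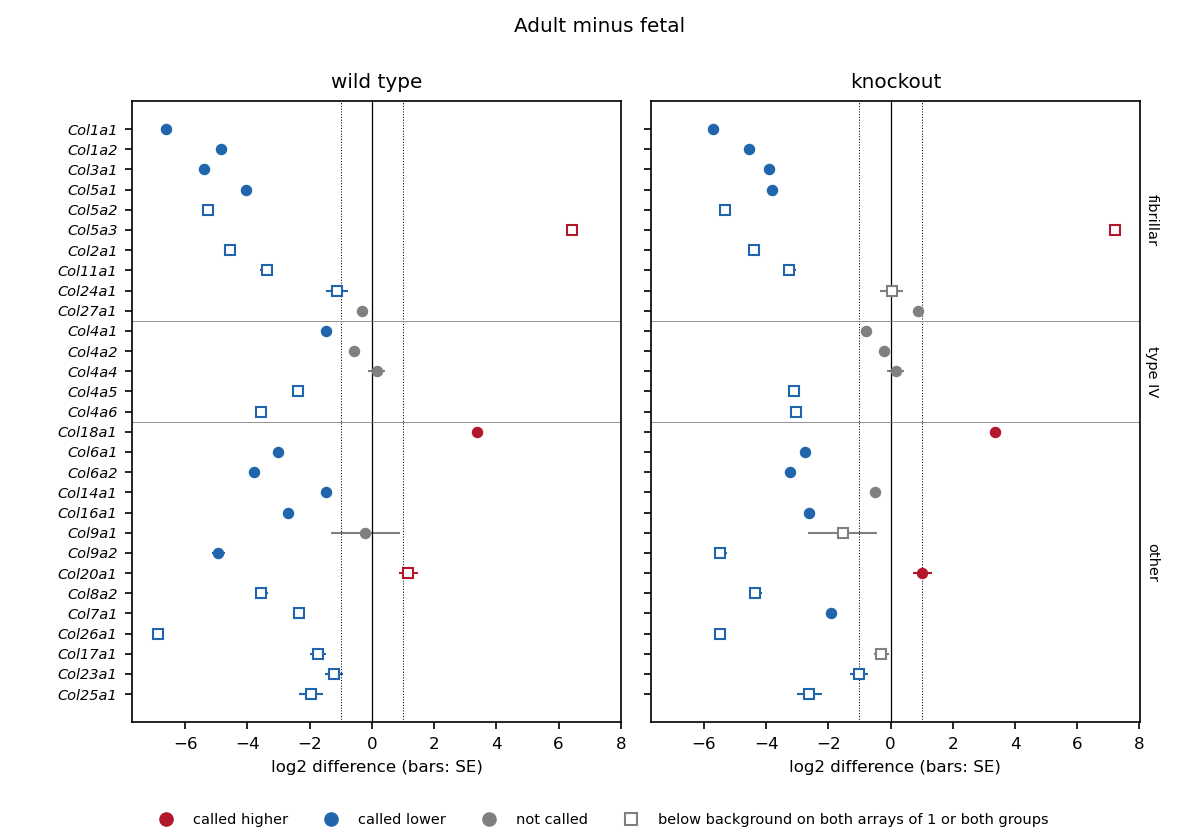
Log2 difference between adult and fetal liver for the 29 tested collagen genes in wild type (left) and knockout (right), with SE over arrays; dotted lines mark 2-fold and open squares mark genes below background in 1 or both groups, for which the plotted value is no bound. Most genes lie left of 0, with Col5a3 and Col18a1 far to the right in both panels.

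Among the fibrillar chains, Col1a1 was 98.1-fold lower in the wild-type adult (log2 -6.62 ± 0.11) and 52.6-fold lower in the knockout adult (-5.72 ± 0.11) than in the fetal pool of the same genotype. Col3a1 was 42.5-fold and 15.0-fold lower (log2 -5.41 ± 0.02 and -3.91 ± 0.02). Col1a2 was 28.9-fold and 23.6-fold lower, and Col5a1 16.6-fold and 14.0-fold. The adult and fetal arrays of these 4 genes were far from overlapping. Col5a2, Col2a1 and Col11a1 were above background only in fetal pools, at least 8.01-fold, 5.32-fold and 2.24-fold lower in the wild-type adult.

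Col5a3 went the other way. It was below background on all 4 fetal arrays and at least 80.3-fold higher in the wild-type adult and at least 139-fold higher in the knockout adult. Its type V partners Col5a1 and Col5a2 were lower in both. Col27a1 was not called in either genotype, at 0.315 and 0.330 in the wild-type adult against 0.405 and 0.402 in the fetal pool (log2 -0.32 ± 0.12, adjusted p = 0.033), and at 0.89 ± 0.12 in the knockout.

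**Figure D4:**
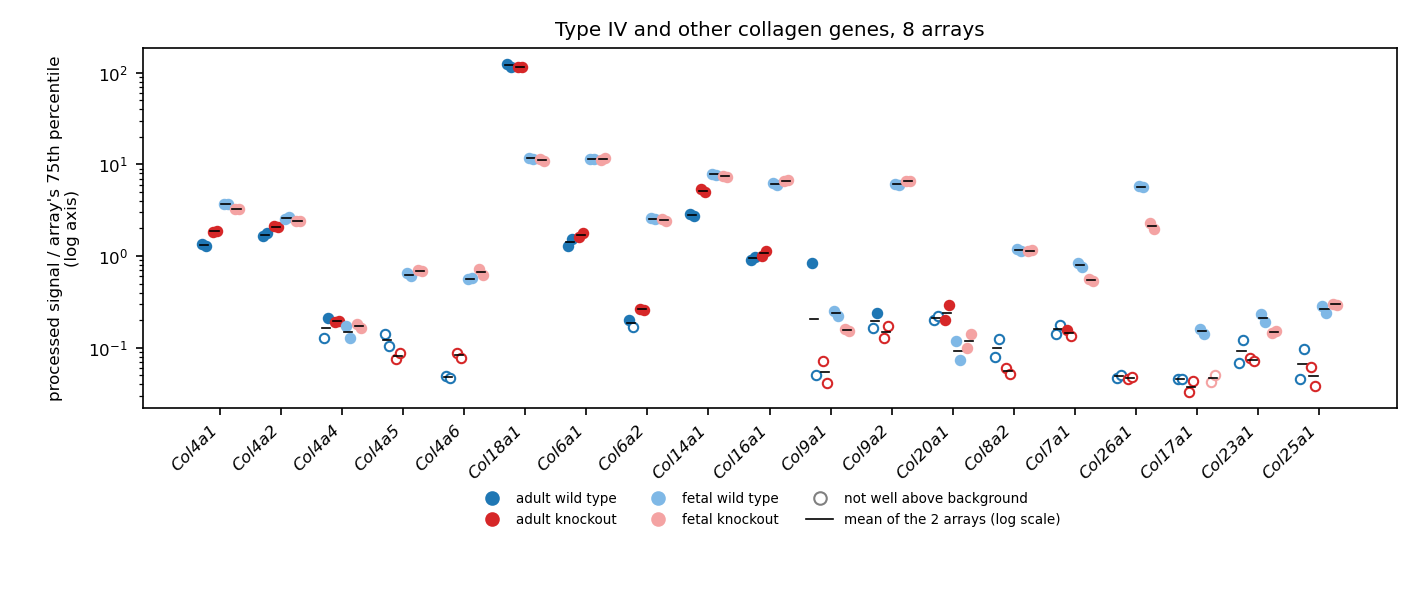
Scaled signal (processed signal over the array's 75th percentile, log axis) of the 5 type IV and 14 other tested collagen genes on the 8 arrays; points are arrays, open where not well above background, and lines are the mean of the 2 arrays. Col18a1 lies above 114 in adults and near 11.5 in fetal pools, Col26a1 is above background only in fetal pools, and the wild-type adult arrays of Col9a1 disagree.

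Among type IV chains, Col4a1 was 2.77-fold lower in the wild-type adult (log2 -1.47 ± 0.04) and, not called, 1.73-fold lower in the knockout adult. Col4a2 differed by -0.59 ± 0.05 and -0.22 ± 0.05 and was not called, although other scalings took it to -1.22 in the wild type. Col4a5 and Col4a6, neighbours on the X chromosome, were below background in adults, at least 3.53-fold and 3.17-fold lower in the wild type. The probes of Col4a6 disagreed: its second probe was above background on all 8 arrays and gave 0.91 and 0.71, higher in adults. Col4a4 read 0.126 to 0.212 over the 8 arrays and was above background on all 4 fetal arrays and on 3 of the 4 adult arrays.

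Col18a1, a basement membrane collagen of the multiplexin class, was 10.3-fold higher in adult than fetal liver in both genotypes (log2 3.37 ± 0.04 in each). A second probe gave 2.61 and 2.49. The level was thus high on all 4 adult arrays, at 115 to 123, and at 10.9 to 11.7 on all 4 fetal arrays. Col20a1, the third gene called higher in adults, was below background in WT-Ad and lost its call under each of the other scalings in both genotypes.

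The beaded filament chains Col6a1 and Col6a2 were 8.13-fold and 13.9-fold lower in the wild-type adult. Among fibril-associated collagens, Col16a1 was 6.54-fold lower, Col9a2 of cartilage 30.6-fold lower with 1 of 2 adult arrays above background, and Col14a1 2.78-fold lower. In the knockout Col14a1 was not called (log2 -0.51 ± 0.05), and its second probe gave -0.93 and 0.24. The largest bound among the others was that of Col26a1, at least 32.1-fold lower in the wild-type adult and at least 13.9-fold in the knockout. Col7a1 was at least 4.48-fold lower. Col8a2, a network collagen of vessels and cornea, was at least 6.53-fold lower by its representative probe, but its probes disagreed: the second gave 1.21 in the wild type and -0.01 in the knockout, above background on 1 WT-Ad array, no KO-Ad array and all 4 fetal arrays. Col17a1 and Col24a1 were called lower in the wild type without a measurable bound. The dim Col23a1 and Col25a1 were at least 1.18-fold and 1.47-fold lower in the wild type, and their other probes differed in size or sign.

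Genes acting on collagen moved in both directions between stages. Over all genes tested, 27.9% were called lower in the wild-type adult and 27.3% higher. In the wild type, of 30 processing genes 13 were lower in adults and 5 higher. Fkbp10, a chaperone of procollagen, was lower at -4.43 ± 0.06, Serpinh1 at -3.47 ± 0.07 and Loxl2, a cross-linking oxidase, at -3.16 ± 0.13, while Tmem38b, an ion channel of the endoplasmic reticulum, was higher at 3.59 ± 0.31. Of 17 proteoglycan and matrix genes 11 were lower, among them Lum (-3.35 ± 0.03) and Postn (-3.19 ± 0.14), and 4 were higher, among them Fn1, the plasma and matrix fibronectin (2.43 ± 0.05). Of 17 laminin and basement membrane genes 11 were lower, including Lamc1 (-2.28 ± 0.05), and 3 higher, including Lamb3 (4.06 ± 0.18) and Smoc1 (2.21 ± 0.04).

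Of 8 receptors 5 were lower and 1 higher, Itga1, the alpha chain of a collagen-binding integrin (2.0 ± 0.09). Of 9 breakdown genes 4 were lower and 1 higher, Mmp15, a membrane-bound metalloproteinase (2.60 ± 0.12). Of 22 TGF-beta pathway genes 6 were lower, close to the all-gene share of 27.9%. Ccn2, connective tissue growth factor, was among those higher (2.14 ± 0.05). In the knockout the counts were 12 lower and 5 higher, 11 and 4, 9 and 3, 4 and 2, 4 and 1, and 6 and 1 for the same lists in that order. The all-gene shares there were 27.8% lower and 25.8% higher.

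Cell type markers differed between stages as well, where 27.9% of all genes tested were lower in the wild-type adult and 27.3% higher. Of 16 stellate cell and fibroblast genes 9 were lower in the wild-type adult, among them Acta2 (-4.92 ± 0.03), Mfap4 (-4.13 ± 0.22) and Vim (-3.56 ± 0.03), and 3 were higher: Rgs5, Cygb and Lrat. Their summed scaled signal was 19.6 in WT-Ad and 66.3 to 67.5 in WT-Fetal. All 12 hepatocyte genes were higher in the adult and all 12 heart muscle genes lower, with 8 of the 12 below background in WT-Ad. Of 14 body wall mesenchyme genes 10 were lower and 1 higher. Of 9 epidermal genes 5 were lower and 1 higher, while the list's summed signal was 73.0 to 75.7 in WT-Ad and 31.5 and 31.6 in WT-Fetal. Of 7 mesothelial genes 6 were lower, with sums of 1.70 to 1.90 against 11.4 to 11.6. Of 11 erythroid genes 10 were lower and 1 higher, with sums of 1117 to 1123 against 2603 to 2846. The part of these cell types in the stage differences of the collagens was not tested.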

How the data were processed

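Total liver RNA of 4 groups was hybridised to 8 Agilent 1-colour arrays, 2 technical duplicates per group. Per the file headers, the authors' deposited scanner files come from Agilent Feature Extraction 10.7.3.1; the processed signal is a background-subtracted intensity per spot, and the detection and outlier flags are also deposited by the authors there. The deposited series table holds linear intensities that the authors normalized by a method not given in the sources used here. Its 8 columns share a median of 18.1 and a 75th percentile of 184.6, so more than the median was equalised. The table served as an alternative after log2 with a floor of 1. Spots of one probe were averaged without outlier-flagged spots. Log2 intensity minus each array's 75th percentile was fitted with limma 3.58.1 (R 4.3.3; 4 groups, all 8 arrays, intensity trend), Benjamini-Hochberg over the 14564 genes that some group had above background on its 2 arrays. Probe names came from a RefSeq table: 26762 of 55681 probes matched a gene and 28919 did not. The number of arrays limits the precision, and with 1 RNA sample per group no value measures the spread between animals.

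Members and lists were chosen with earlier results of these data known. All collagen genes are named, and from every other pathway list at most 4 called genes with the largest differences among those above background in both groups, plus genes named because a count was small. The "at least" folds set the brighter group's mean against the higher of the dim probe's own signal and the lowest signal well above background on each array. Promoter windows were read from the RefSeq table of GRCm38.p6. Some results for the TGF-beta pathway list are not reported here. Fits were tested on simulated data. Alternatives were other scalings, background corrections, filters, probe choices, models and left-out arrays. Duplicate arrays correlated at 0.992 to 0.997. The slide row holds 1 array of each group and was tried as a block. The slide column could not be, because each group has its own.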

Additional observations from a re-analysis of the deposited data

Results flagged for a closer look

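For 4 collagen genes the difference between knockout and wild type was itself different between adult livers and fetal pools, by the limma test of the adult effect minus the fetal effect. Col3a1 differed by 1.50 on the log2 scale (adjusted p = 5.5e-07), and the value stayed between 1.13 and 1.68 under the scalings and background settings tried. Col27a1 differed by 1.21 (adjusted p = 7.4e-04) and by 0.47 with normexp. Col26a1 differed by 1.39 (adjusted p = 3.8e-04), from a fetal decrease in a gene below background in both adult groups. Col17a1 differed by 1.45 (adjusted p = 0.012), though WT-Fetal was the only group with it above background. Its call was lost with normexp (0.23), with median scaling (1.60, adjusted p = 0.070) and without the first WT-Fetal array (1.36). These p-values cover array error between 1 RNA sample per group.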

How the results depend on the processing

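Over 22 alternatives, 1921 of 2042 single-gene values kept their side of the threshold, 42 lost a call, 71 gained one and 8 were counted as reversed. An uncalled value that changed sign was not always counted as reversed. The adult knockout difference of Col9a1, for example, ranged from -3.95 to 0.10 with 0 reversals counted. With normexp, which here used the median spot signal, 4 genes reversed to higher in the wild-type adult than the fetal pool: Col17a1 (0.13), Col23a1 (0.25), Col24a1 (0.52) and Col25a1 (0.041). Col23a1 did so in the knockout too (0.13). Col4a6 reversed with the probe of highest scaled log2 signal (0.91 in wild type, 0.71 in knockout), and Col9a1 without the second WT-Ad array (1.81, against -2.24 without the first). The cause was not tested.

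Normexp gave 2 collagen genes called higher in the adult knockout, 1 lower in the fetal knockout, 14 lower in the wild-type adult than fetal and 2 whose knockout effect differed by stage. Calls over all 14564 genes fell too, to 233, 39 and 2760 for the first 3, in place of 722, 209 and 4068. Those differing by stage were 259 higher and 218 lower, in place of 881 and 538. Without the filter on dim probes, of 42 collagen genes 9 were higher in adults in wild type, 10 in knockout and 5 lower in the fetal knockout. Over all 20284 genes the same counts were 7449, 6734 and 253. Restricted to genes above background on all arrays, which tests 11 collagen genes, the collagen counts were 1 and 1 higher and 8 and 6 lower in adults (wild type, knockout), 0 lower in the fetal knockout and 2 differing by stage. Over all 10588 such genes 3323 and 3059 were higher and 1993 and 2072 lower in adults. Another 13 were lower in the fetal knockout, and 369 and 322 differed by stage in the higher and lower direction. By adjusted p alone the collagen counts were 13 higher and 2 lower in the adult knockout and 3 higher and 5 lower in the fetal knockout. By the same rule 12 collagen genes differed by stage, where all genes gave 3040 higher and 4524 lower. In the adult knockout, median scaling and averaged arrays without a test each gave 1 collagen gene lower, where all genes gave 306 and 491. With quantile normalization 1057 of all genes differed by stage in the higher direction and 399 in the lower. With the deposited value table these counts were 1095 and 387. Each gave 7 collagen genes differing by stage. Leaving out 1 array at a time gave 0 to 2 lower in the adult knockout, 2 from WT-Ad array 1 removed, and 3 to 8 differing by stage, 8 from the same array. With the slide row as a replicate block the calls were 4 higher in the adult knockout and 3 lower in the fetal one, as without it; the labels give no replicate numbers, and arrays of a row did not deviate together. Signal over background limits the adult comparisons: 11 of 29 tested genes were below background in both adult groups.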
